A study of Mus musculus with 6 samples.

Results

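Open chromatin at the promoters of long non-coding RNA (lncRNA) genes was examined in white preadipocytes, the fibroblast-like precursors of fat cells. A promoter region was defined as a stretch of the genome that (1) came from merging the overlapping peak intervals of all 6 libraries on chromosomes 1 to 19, (2) held a summit with −log10 q above 2 in at least 2 libraries, (3) lay within 1 kb of a transcription start site (TSS) of a lncRNA gene in GENCODE M21 (mm10) and (4) lay over 5 kb from every TSS of a protein-coding gene. These steps gave 2393 lncRNA promoter regions among 174449 regions kept, or 1.37%. Another 951 of the 3344 regions that met the position rule did not pass the q filter. Of those, 807 had such a summit in 1 library, and their median rank percentile, the mean over libraries defined below, was 2.33, against 6.00 for the 296 regions that passed with exactly 2 libraries. The rule itself uses no value of the contrast between genotypes. It was chosen with earlier results of these data known, and a region can pass the q filter through 1 genotype alone.

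The study asked how loss of the nucleosome-binding proteins HMGN1 and HMGN2 affects white adipocyte browning. ATAC-seq, in which the Tn5 transposase inserts adapters into accessible DNA, was run by the omni-ATAC protocol on preadipocytes from inguinal white adipose tissue of C57BL/6 mice at day 0, that is, cultured on collagen and not yet given differentiation medium. The 3 WT libraries came from wild type mice, and the 3 DKO libraries from Hmgn1-/- and Hmgn2-/- mice, whose cells lack both proteins throughout life, so that an effect of the cell and of its history in the animal cannot be told apart. The study isolated such cells from young adult male mice. Nothing in the labels says that the 3 replicates of a genotype came from separate animals, so the p-values measure the spread between these libraries.

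A lncRNA is a long transcript that is not translated into protein. Some act where they are made, by holding chromatin regulators on a neighbouring gene or an imprinted cluster, some build nuclear bodies, and others serve as the precursor of microRNAs or small nucleolar RNAs. LincRNAs lie between protein-coding genes, whereas antisense lncRNAs overlap a gene on the opposite strand. Their promoters are bound by RNA polymerase II as those of coding genes are, and many are shared with, or arose from, enhancers. ATAC-seq has no strand and reports accessibility, not transcription, so an open region within 1 kb of a lncRNA TSS may serve another element.

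Each deposited list held 299433 to 299620 summits, with fold enrichment over local background, −log10 p and −log10 q for each. The rank of a summit was taken by −log10 p within its library and is given as a percentile, where 100 is the smallest p. A region with no line in a library was given percentile 0. Because each list ends at about the same number of lines, a missing line does not show that the chromatin was closed. The background most often used by the peak caller, which moves with depth, was 2.41 to 2.58 reads in 5 libraries and 2.05 in DKO replicate 3. The Hmgn2 promoter region had summit pileups of 42, 39 and 52 reads in WT and no line in any DKO library, and the Hmgn1 promoter region was listed in all 6 libraries. Promoters of 12 of 13 preadipocyte and fibroblast marker genes were listed in all 6 libraries. Among markers of other cells, Cidec, Lep and Ucp1 of mature adipocytes and Myod1, Myf5 and Myog of muscle had no line, whereas 3 of 6 macrophage and leukocyte promoters were listed in all 6.

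The 11 sequences used below come from the GRCm38 (mm10) assembly of NCBI RefSeq and are printed 5′ to 3′ on the strand of the lncRNA. Of these, 4 are 151 bases around the best-ranked summit with CpG dinucleotides in capitals, because CpG content is compared with rank below. The D730045B01Rik region (chr5:151368757-151368907, minus strand) had the highest mean rank of all and is rich in CpG. The Gm5444 region (chr13:4771519-4771669, plus strand) was among the 10 highest with few CpG. The 2410017I17Rik (chr17:36145170-36145320, plus strand) and BC023719 (chr17:36110925-36111075, plus strand) regions were the ones that passed the test between genotypes.
D730045B01Rik: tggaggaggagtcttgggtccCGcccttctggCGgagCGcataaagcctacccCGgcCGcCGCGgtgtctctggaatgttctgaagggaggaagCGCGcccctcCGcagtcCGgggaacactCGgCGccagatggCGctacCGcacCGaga
Gm5444: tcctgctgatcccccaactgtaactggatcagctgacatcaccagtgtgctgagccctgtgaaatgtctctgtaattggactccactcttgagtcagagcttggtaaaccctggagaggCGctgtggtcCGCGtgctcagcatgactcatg
2410017I17Rik: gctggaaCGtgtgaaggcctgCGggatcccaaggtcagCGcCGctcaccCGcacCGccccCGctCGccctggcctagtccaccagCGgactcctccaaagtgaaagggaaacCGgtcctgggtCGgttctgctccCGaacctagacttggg
BC023719: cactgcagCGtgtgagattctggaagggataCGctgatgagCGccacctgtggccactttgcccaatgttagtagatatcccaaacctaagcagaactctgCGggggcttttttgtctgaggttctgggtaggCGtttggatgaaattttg

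Another 4 are 151 bases around the best-ranked summit, shown because they held the AP-1 motif TGAGTCA (capitals, searched on both strands) and were among the regions with the smallest p in either direction. AP-1 is the FOS and JUN family of transcription factors. The 4930440C22Rik (chr1:94796047-94796197, plus strand) and Rab11fip4os1 (chr11:79622828-79622978, minus strand) regions had lower values in DKO. A630023P12Rik (chr5:110514066-110514216, plus strand) had lines in WT alone and Gm47471 (chr17:66738342-66738492, plus strand) in DKO alone, so neither carries a test.
4930440C22Rik: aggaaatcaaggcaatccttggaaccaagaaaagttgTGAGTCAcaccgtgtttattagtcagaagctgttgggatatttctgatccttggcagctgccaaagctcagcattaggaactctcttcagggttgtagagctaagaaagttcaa
A630023P12Rik: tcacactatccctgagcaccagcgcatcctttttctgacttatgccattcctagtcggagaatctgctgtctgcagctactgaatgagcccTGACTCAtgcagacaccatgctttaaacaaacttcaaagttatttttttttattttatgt
Rab11fip4os1: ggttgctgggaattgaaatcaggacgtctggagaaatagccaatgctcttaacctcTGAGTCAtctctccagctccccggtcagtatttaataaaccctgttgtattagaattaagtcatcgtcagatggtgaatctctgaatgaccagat
Gm47471: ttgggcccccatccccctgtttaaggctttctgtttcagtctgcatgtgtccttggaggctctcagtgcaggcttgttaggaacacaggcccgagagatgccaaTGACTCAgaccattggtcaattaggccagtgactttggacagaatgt

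The last 3 belong to lncRNAs with known functions. Meg3 (chr12:109540905-109541055, plus strand) is shown from 100 bases before to 50 bases after its TSS, with the cAMP response element (CRE) TGACGTCA and the TATA box TATAAA, each searched on both strands, in capitals. The capitals at the TATA box are overlapping matches on both strands. Malat1 (chr19:5802563-5802713, minus strand) and Dnm3os (chr1:162217472-162217622, plus strand) are 151 bases around the best-ranked summit of a region at the TSS, with CpG in capitals.
Meg3: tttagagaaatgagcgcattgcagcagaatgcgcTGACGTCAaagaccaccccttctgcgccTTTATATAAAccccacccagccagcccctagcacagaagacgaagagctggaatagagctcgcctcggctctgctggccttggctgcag
Malat1: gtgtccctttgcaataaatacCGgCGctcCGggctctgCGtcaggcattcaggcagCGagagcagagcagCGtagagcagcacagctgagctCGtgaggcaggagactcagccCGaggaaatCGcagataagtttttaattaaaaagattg
Dnm3os: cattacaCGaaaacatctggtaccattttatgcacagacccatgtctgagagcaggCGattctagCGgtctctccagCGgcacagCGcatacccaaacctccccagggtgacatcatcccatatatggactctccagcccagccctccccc

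Of 8122 lincRNA and antisense genes annotated on these chromosomes, 5926 had a TSS over 5 kb from any coding TSS, and 1851 of those, or 31.2%, had an open promoter region. With 7 further genes whose start sites all lay within 5 kb of a coding TSS, 1858 lncRNA genes were represented, 1427 lincRNA and 431 antisense. Most of them, 1393 genes, had a single region, 369 had 2 and 96 had 3 or more. Lncpint, a p53-regulated lncRNA, had the most, with 8 regions, followed by Gm53 with 6, and AC163629.2, BC028471, Frmd8os, Gm14005, Gm28578 and Mir670hg with 5 each. By nearest TSS, 1841 regions belonged to lincRNA genes and 552 to antisense genes.

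The summit lay at a median of 384 bp from the nearest lncRNA TSS. It was within 100 bp in 486 regions, or 20.3%, and within 500 bp in 1398, or 58.4%. The nearest coding TSS was a median of 52.2 kb from the regions of lincRNA genes and 18.2 kb from those of antisense genes. In the antisense class 358 of 552 summits, or 64.9%, lay in an intron of a coding gene and 27 in an exon. In the lincRNA class 1780 of 1841, or 96.7%, lay outside coding genes. Over all lncRNA promoter regions, 1947 summits lay outside coding genes, 415 in a coding intron and 31 in a coding exon.

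The CpG content of lncRNA promoters lay between that of coding promoters and of distal sites. A region was called CpG-rich where, in the 0.5 kb around its best summit, the CpG observed-to-expected ratio was above 0.6 and GC above 50%. This held for 178 lncRNA promoter regions, or 7.44% (Wilson 95% interval 6.45 to 8.56). It held for 44.3% of 28950 coding promoter regions (43.7 to 44.9), which are those within 1 kb of a coding TSS, and for 0.562% of 106887 distal regions (0.519 to 0.609), which lie over 5 kb from any TSS. The median CpG ratio was 0.27 in lncRNA promoters, 0.57 in coding promoters and 0.19 in distal regions. These intervals cover counting error only, and regions are not independent samples.

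The shares of lncRNA promoters with the motif letters searched also lay between the other sets. The GC box GGGCGG, the site of SP and KLF factors, was present in 19.1% of lncRNA promoter windows, 50.4% of coding and 7.94% of distal windows, and in 15.9% of all regions kept. The ETS motif CCGGAAG was in 5.27%, 12.03% and 2.15%, with 3.96% of all regions. The AP-1 letters TGAGTCA were in 26.1% of lncRNA promoters (24.4 to 27.9), 12.7% of coding promoters and 32.1% of distal regions, with 28.2% of all. The C/EBP letters TTGCNNAA, of the factors that open adipogenesis, were in 23.8%, 16.5% and 26.1%, with 23.9% of all, and CTCF letters in 3.26%, 2.04% and 3.28%, with 3.35% of all. All were searched on both strands. The share with AP-1 letters was 26.8% (23.3 to 30.7) in antisense and 25.9% (24.0 to 28.0) in lincRNA promoters.

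Ranks of the lncRNA promoters spread over the whole range, with more regions at both ends than in the middle. In the top 10 percentiles by mean rank stood 329 of 2393 regions, or 13.7%, and 362, or 15.1%, stood in the lowest 10. The top class held 24.5% of coding promoters and 7.06% of distal regions. CpG-rich regions made up 19.5% of the top class and 5.25% of the lowest. AP-1 letters were in 33.1% of the top class and 17.1% of the lowest. A line in all 6 libraries was present for 1472 regions, or 61.5%, against 55.7% of all regions kept. The median mean rank was 73.5 for those 1472 and 5.88 for the 271 regions listed in 2 libraries.

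**Figure D1:**
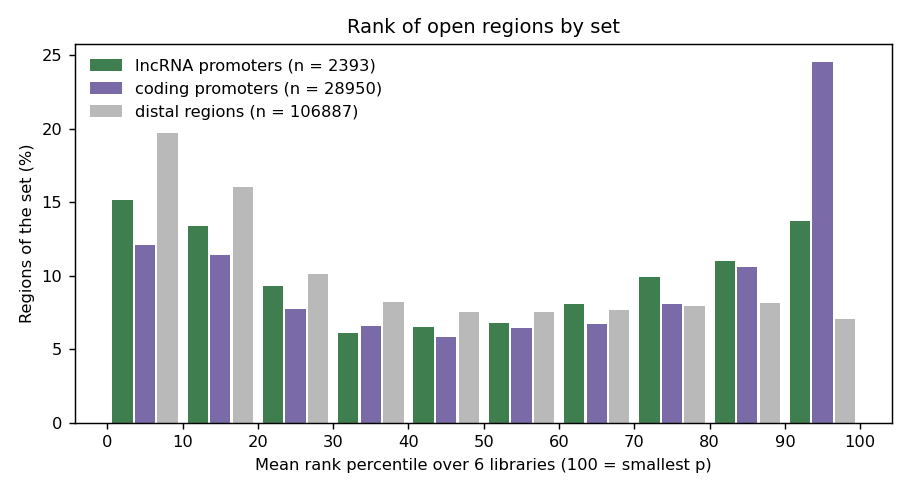
Share of each set of regions (vertical axis, %) by mean rank percentile over 6 libraries (horizontal axis, classes of 10, with 100 the smallest p), for lncRNA promoters, coding promoters and distal regions. The top class holds 13.7% of lncRNA promoters, between the 24.5% of coding promoters and the 7.06% of distal regions.

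The 10 regions with the highest mean rank were all listed in every library, at mean percentiles of 99.5 to 99.9. They belonged to D730045B01Rik, 1700113A16Rik, Gm6410, Gm5444, 1810019N24Rik, Snhg7os, AC122818.2, Gm15287, 1700030C14Rik and 5430416N02Rik, whose transcripts have no function that can be named here with certainty. D730045B01Rik had fold enrichments of 25.2, 22.4 and 24.4 in WT and 22.5, 23.7 and 23.3 in DKO. Gm5444 had 19.4, 23.8 and 22.7 in WT and 22.1, 23.2 and 21.3 in DKO. In both, the WT and DKO values overlapped. The windows printed above show the contrast in base composition, with 16 CpG in the D730045B01Rik window and 3 in that of Gm5444, whose CpG ratio over 0.5 kb was 0.22 and which held AP-1 letters. Log2 changes of the 10 regions lay between −0.11 and 0.24, and none passed the test.

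Known lncRNAs were examined through 7 lists of genes by role. Of 60 list genes that are annotated as lincRNA or antisense, 29 had a region that met the rule, with 71 regions in all and 49 of them listed in all 6 libraries. The other 31 were not all closed, since 21 of them have no TSS over 5 kb from a coding TSS and 15 had a kept region within 1 kb of a TSS. None of the 71 passed an adjusted p of 0.05 between genotypes, where 0.0453% of all regions passed as lower in DKO and 0.0287% as higher. At an unadjusted p under 0.05, 2 of the 71 were lower, of which 1 is the WT-only Pvt1 region that carries no test, and 5 were higher, where 6.03% and 5.62% of all regions were. Their median log2 change was 0.11, against 0.01 over all regions. After scaling by quantiles over all regions, WT and DKO values did not overlap in 4 of the 71 with lower and 10 with higher DKO values. Over all regions, 7.52% and 8.55% did not overlap. The 4 include Pvt1 and Dnm3os regions with lines in WT alone. For single named regions, overlap refers to fold enrichments as deposited.

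**Figure D2:**
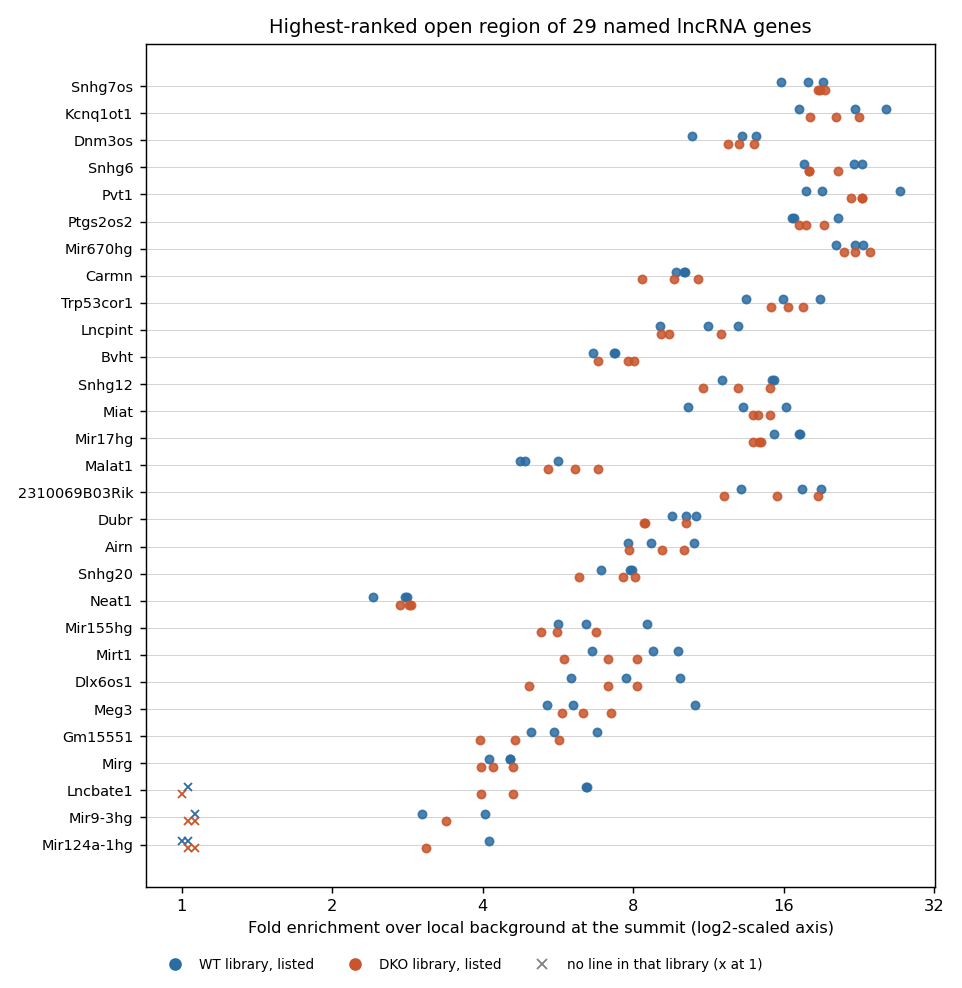
Fold enrichment over local background (horizontal axis, log2-scaled) at the highest-ranked open region of each of 29 named lncRNA genes, ordered by mean rank, with 1 point per library in blue for WT and orange for DKO and crosses at 1 for libraries with no line. WT and DKO points overlap for most genes, and Mir124a-1hg, at the bottom, was listed in 1 library of each genotype.

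Malat1 and Neat1, the nuclear lncRNAs of speckles and paraspeckles, lie side by side on chromosome 19. The region over the Malat1 TSS (chr19:5802576-5802715, summit in an exon) had fold enrichments of 4.37, 4.07 and 5.02 in WT and 4.35, 5.17 and 3.60 in DKO. The groups overlapped. A wider CpG-rich region upstream (chr19:5803016-5804130) had 5.24, 5.67 and 4.82 in WT and 6.39, 7.44 and 7.16 in DKO. Every DKO value there was above every WT value, and the log2 change was 0.60 ± 0.21 (SE), with an unadjusted p of 0.0149 and an adjusted p of 0.272 by limma, which did not pass. The widest and highest-ranked Malat1 region (chr19:5793631-5795958), near another start site, had 4.87, 4.75 and 5.65 in WT and 6.11, 5.39 and 6.80 in DKO. Those values overlapped, with a log2 change of 0.44 ± 0.20 and an adjusted p of 0.440 by limma. The Neat1 region (chr19:5845368-5845844) also spans the start of the antisense gene Frmd8os, so the genes cannot be told apart there. Its fold enrichments were 2.41, 2.82 and 2.80 in WT and 2.74, 2.85 and 2.87 in DKO, on pileups of 110, 103 and 159 and of 120, 123 and 91 reads. Such pileups at so low a fold enrichment go with a high local background, and the groups overlapped.

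Among imprinted lncRNAs, which are made from 1 parental allele, Meg3, Mirg, Airn and Kcnq1ot1 had regions that met the rule. H19 and Igf2os had no kept region within 1 kb of a TSS, and Nespas had 2, which lie within 5 kb of a coding TSS. Kcnq1ot1, which silences its cluster from the paternal chromosome, had the most open region of this list (chr7:143295982-143296828, in an intron of Kcnq1, summit at −104 bp from the TSS). It had 22.2, 17.1 and 25.6 in WT and 20.4, 22.6 and 18.0 in DKO, at a mean percentile of 98.5. Airn, the antisense transcript of Igf2r, had 8.67, 7.80 and 10.6 in WT and 9.15, 7.84 and 10.1 in DKO at its TSS (chr17:12741168-12741453). At the Meg3 TSS (chr12:109540622-109541099) the values were 7.38, 5.55 and 6.61 in WT and 4.67, 6.81 and 5.46 in DKO. WT and DKO overlapped in all of these. The summit at Meg3 was 1 bp from the annotated TSS, downstream of the cyclic AMP element and TATA box capitalised above. The CRE letters were present in 1.21% of lncRNA promoters and 0.939% of all regions, and the TATA letters in 20.5% and 25.9%. Over the 10 regions of the list, 5 had a lower and 5 a higher value in DKO, and none had an unadjusted p under 0.05.

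Genes that host microRNAs had 20 regions from 8 genes. Dnm3os, which carries the miR-199a and miR-214 cluster of mesenchymal cells, had a region of mean percentile 98.4 in an intron of Dnm3 (chr1:162217124-162218141), with 13.2, 10.5 and 14.1 in WT and 14.0, 12.4 and 13.0 in DKO. Those groups overlapped. Mir17hg, the host of the miR-17 to miR-92a cluster, had 17.3, 15.3 and 17.1 in WT and 14.3, 13.9 and 14.4 in DKO upstream of its TSS (chr14:115042171-115042738). All DKO values there were below the WT values as deposited, but the log2 change after scaling was −0.08 ± 0.11, with an adjusted p of 0.822 by limma. Mir155hg, an inducible gene of immune and stromal cells, had 6.44, 5.65 and 8.53 in WT and 5.22, 5.63 and 6.75 in DKO in an exon near its TSS (chr16:84703201-84703421), where the groups overlapped.

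Pvt1, a neighbour of Myc and also a microRNA host, held 4 regions. The TSS region (chr15:62037676-62038944) had 7.51, 6.69 and 8.19 in WT and 7.79, 6.33 and 9.53 in DKO. The strongest (chr15:62222489-62223494), at an internal start site with AP-1 letters, had 19.1, 17.8 and 27.3 in WT and 23.0, 22.9 and 21.9 in DKO. Both overlapped between genotypes. A weak region at another start site (chr15:62039105-62039455) had 4.28, 3.19 and 3.84 in WT and no line in DKO. It met the q filter through the WT libraries alone, so its difference is given as a description, with no test.

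Hosts of small nucleolar RNAs, which guide modification of ribosomal RNA, had 9 regions from 4 genes. Snhg6 (chr1:9943615-9944296, CpG-rich) had 22.1, 17.5 and 23.0 in WT and 18.0, 20.6 and 18.0 in DKO. Snhg12 (chr4:132308485-132309285, CpG-rich) had 12.1, 15.2 and 15.3 in WT and 11.1, 12.9 and 15.03 in DKO. The values of both genes overlapped between genotypes. Snhg7os (chr2:26640162-26640850), antisense to the host Snhg7 and among the 10 highest in rank, had 19.2, 15.8 and 17.9 in WT and 18.7, 18.9 and 19.4 in DKO. Its log2 change was 0.24 ± 0.11, with an adjusted p of 0.429 by limma. A weak second region of Snhg20 had 2.63, none and 3.39 in WT and 3.85, 3.26 and 2.97 in DKO, with a log2 change of 0.85 ± 0.38 and the same adjusted p of 0.429, with 1 WT line missing.

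The adipose list gave 5 genes with 10 regions, 5 with a lower and 5 with a higher value in DKO, a median log2 change of 0.00 and no region with an unadjusted p under 0.05. Lncbate1, a lncRNA needed by brown adipocytes, had a region at its TSS (chr8:108584571-108584920, in an intron of Zfhx3) with no line, 4.27 and 3.82 in WT and 3.63, no line and 3.93 in DKO. Lines were missing in both genotypes. Dubr, also called Dum and known from muscle precursors, was more open (chr16:50732438-50733092), with 9.56, 10.2 and 10.7 in WT and 8.44, 10.2 and 8.41 in DKO. 2310069B03Rik (chr6:82881407-82882202) had 17.5, 13.1 and 18.99 in WT and 15.5, 18.7 and 12.2 in DKO. Both pairs of groups overlapped.

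Of 15 developmental lncRNAs, 3 had a region that met the rule. Among the Hox cluster transcripts, Hotair and Hottip had no kept region within 1 kb of a TSS, and Hotairm1 had 2, both listed in all 6 libraries, but starts within 5 kb of a coding TSS. Carmn, the host of miR-143 and miR-145 of smooth muscle, had 9.75, 10.1 and 10.2 in WT and 9.64, 10.8 and 8.33 in DKO (chr18:61665073-61666702). The neighbouring Bvht, also called Braveheart and known from heart development, had 7.36, 6.65 and 7.33 in WT and 7.80, 6.79 and 8.02 in DKO (chr18:61639523-61640149). Mean percentiles were 95.7 and 94.2, and the groups overlapped in both.

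In the list of growth, p53 and stress, Trp53cor1, the lincRNA-p21 gene next to Cdkn1a, was most open at its TSS (chr17:29078530-29079446), with 13.5, 15.9 and 18.9 in WT and 15.1, 17.5 and 16.3 in DKO. A second region at an internal start site (chr17:29073344-29073790) had 7.71, 6.73 and 9.61 in WT and no line, 5.63 and 3.11 in DKO. The listed DKO values were below the WT values, and with the missing line set to the lowest value of its library the log2 change was −1.26 ± 0.40, with an unadjusted p of 0.00999 and an adjusted p of 0.227 by limma. The change was −0.75 without DKO replicate 1, which has the missing line, and −1.70 without DKO replicate 2. Ptgs2os2 had 16.6, 16.8 and 20.6 in WT and 17.2, 19.3 and 17.7 in DKO (chr1:150164551-150165303). That region lay 64219 bp from the nearest TSS of the prostaglandin synthase gene Ptgs2. The 8 Lncpint regions ranged in mean percentile from 13.6 to 94.8 and in log2 change from −0.13 to 0.29, and none passed. Miat, known from heart and neural cells, had 13.3, 10.3 and 16.2 in WT and 14.2, 13.9 and 15.1 in DKO (chr5:112227130-112228030), which overlapped, with a log2 change of 0.29 ± 0.11, an unadjusted p of 0.0284 and an adjusted p of 0.355 by limma.

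Between genotypes, 2 of 2393 lncRNA promoter regions passed the test as higher in DKO and 0 as lower. The test was limma on log2 fold enrichment, scaled by quantiles over all 174449 regions, with a missing line set to the lowest value of its library and Benjamini-Hochberg adjustment over all regions. Over all regions 79 passed as lower, or 0.0453%, and 50 as higher, or 0.0287%. Of the 2, 2410017I17Rik had lines in DKO alone and so met the q filter only through the genotype where it is high, which leaves BC023719 as the call between listed values. At an unadjusted p under 0.05, 117 lncRNA promoter regions were lower, or 4.89%, against 6.03% of all regions, and 159 were higher, or 6.64%, against 5.62%. Of these, 19 of the lower and 38 of the higher regions had lines only in the genotype where they are high. Scaled WT and DKO values did not overlap in 147 regions with lower DKO values, or 6.14% against 7.52% of all. They did not overlap in 259 with higher DKO values, or 10.8% against 8.55%. Those counts hold 23 and 37 regions with lines in 1 genotype only, whose separation comes from the stand-in values. Among regions listed in all 6 libraries the counts were 93, or 6.32% against 7.95% of all such regions, and 172, or 11.7% against 9.83%. The median log2 change was 0.03 in lncRNA promoters, 0.08 in coding promoters, −0.02 in distal regions and 0.01 over all. Without WT replicate 3 it was 0.0045 in lncRNA promoters and −0.0091 over all, so 1 library moves these medians. Without eBayes' trend of variance with level, 17 lncRNA promoter regions passed as lower, or 0.710%, against 1.19% of all, and 38 as higher, or 1.59%, against 1.18%. Of those, 17 and 36 had lines only in the genotype where they are high, with stand-in values in the other, so these counts support no difference. Without scaling the median of all regions moved to −0.14, so changes are relative to that shift. Without any 1 of the 6 libraries, no lncRNA promoter region passed in either direction.

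The size of the differences is set here beside the spread between replicates. Over the 1472 regions listed in all 6 libraries, the median SD of scaled log2 fold enrichment was 0.18 among WT and 0.17 among DKO libraries, and the median absolute difference of the means was 0.15. An absolute log2 change over 1 was seen in 122 regions, of which 1 was listed in all 6 libraries. Their median rank percentile was 15.9, against 49.4 over all lncRNA promoter regions.

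**Figure D3:**
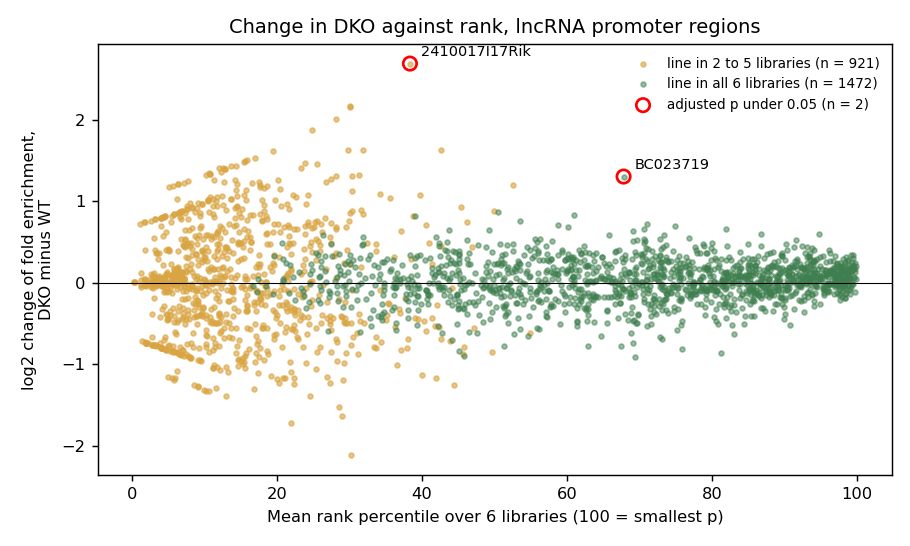
Log2 change of scaled fold enrichment, DKO minus WT (vertical axis), against mean rank percentile over 6 libraries (horizontal axis) for 2393 lncRNA promoter regions, with those listed in 2 to 5 libraries in yellow, 1472 listed in all 6 in green and the 2 with adjusted p under 0.05 circled. Of the 122 regions with an absolute log2 change over 1, the 1 that is listed in all 6 libraries is BC023719.

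Both regions that passed lie in the major histocompatibility (MHC) class I region of chromosome 17, 33.5 kb apart, and both were CpG-rich. The 2410017I17Rik region (chr17:36144963-36145756), which spans the TSS with its summit in an intron, had no line in WT and fold enrichments of 10.2, 10.4 and 7.54 in DKO, on pileups of 36, 36 and 22 reads. All DKO libraries were listed at ranks of 62186 to 81945, and no WT library was. With the lowest listed value in place of the missing lines, its adjusted p was 0.00851 by limma. Since it entered the set through the DKO libraries alone and its WT values are stand-ins, the p is no support for a difference, and no fold change is given.

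BC023719, an antisense gene, had 4.09, 5.41 and 8.22 in WT and 13.3, 11.7 and 12.4 in DKO (chr17:36110569-36111438, summit in an intron of the coding gene Gm7030, at −426 bp from the TSS). Pileups were 13, 18 and 27 reads against 71, 61 and 50, and ranks were 223125, 135448 and 124910 against 25367, 36192 and 26846. No DKO value overlapped a WT value. The log2 change was 1.30 ± 0.19, with an adjusted p of 0.04995 by limma, at the threshold. With no scaling its adjusted p was 0.173. On pileups in place of fold enrichment it was 0.0575.

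Within 50 kb of the 2410017I17Rik region lay 21 other kept regions. Of these, 2 were called lower and 1 higher, BC023719, where 0.0453% and 0.0287% of all regions were, and 6 were lower and 9 higher at an unadjusted p under 0.05, where 6.03% and 5.62% of all regions were. Of the 21, 3 were listed in every WT library and no DKO library and 3 the other way, and the stretch was singled out by its call. Only 5 of the 21 were listed in all 6 libraries, so most have stand-in values in at least 1 library. These counts are a description and support no difference. Within 500 kb there were 134 others with the same calls. The MHC class I region holds closely related gene copies, and how the authors placed reads that fit several copies is not given in the sources used here, so which copy these values belong to is uncertain. Whether the stretch differs in sequence between the WT and DKO mice was not tested.

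The regions with the next smallest p did not pass. Of those higher in DKO, Gm47471 (in an intron of Ptprm), Gm49654 and Gm13174 had no line in WT. Gm47471 had 6.43, 5.38 and 7.54 in DKO, Gm49654 had 6.99, 5.10 and 7.48, and Gm13174 had 5.66, 5.95 and 5.60. Each entered the set through the DKO libraries alone, so these values are a description, with no test. No kept region within 50 kb of these was called.

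Of those lower in DKO, 4930440C22Rik (chr1:94795632-94796430, 517193 bp from the nearest coding TSS) had 18.8, 12.8 and 18.8 in WT and 7.55, 9.35 and 7.54 in DKO. The groups were separate, and the log2 change was −0.86 ± 0.13, with an adjusted p of 0.0552 by limma. 1700025O08Rik (chr4:22938162-22938673) had 16.6, 9.96 and 17.3 in WT and 7.55, 6.80 and 7.21 in DKO, with a log2 change of −0.81 ± 0.16 and an adjusted p of 0.121. Rab11fip4os1 (chr11:79622743-79623401, in an intron of Rab11fip4) had 12.3, 9.38 and 13.0 in WT and 6.68, 6.24 and 6.13 in DKO, with a change of −0.66 ± 0.13 and an adjusted p of 0.129. A630023P12Rik (chr5:110513788-110514288, 30067 bp from the TSS of Galnt9) had 7.11, 6.83 and 7.34 in WT, on pileups of 25, 23 and 24 reads, and no line in DKO. Gm37892 (chr3:80204806-80205229) had 5.26, 5.12 and 5.64 in WT and no line in DKO. Both entered through the WT libraries alone and are described with no test. AP-1 letters were in 4 of these 5 regions and in 2 of the 5 with the smallest p that were higher, where 26.1% of all lncRNA promoter regions held them.

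**Figure D4:**
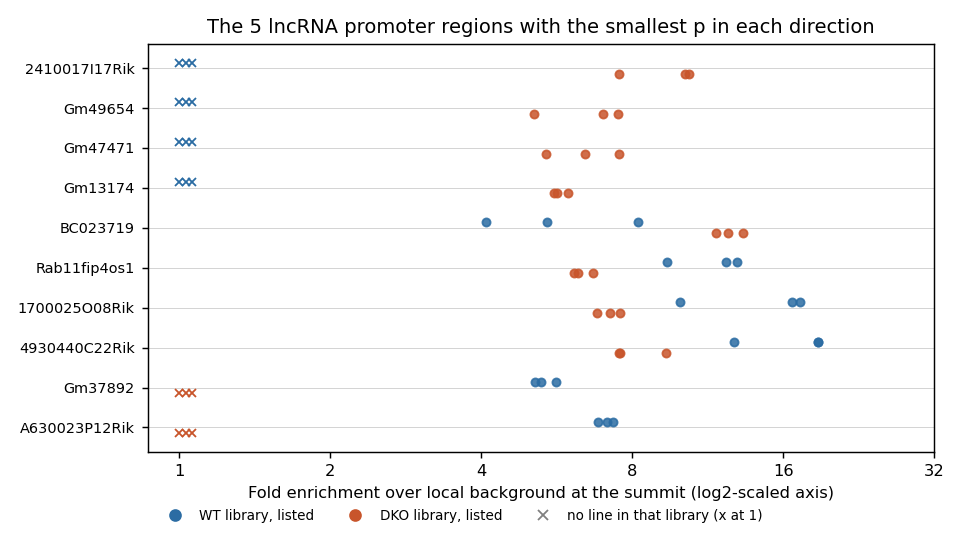
Fold enrichment over local background (horizontal axis, log2-scaled) in each WT (blue) and DKO (orange) library for the 5 lncRNA promoter regions with the smallest p in each direction, with crosses at 1 where a library had no line. WT and DKO points do not overlap in any of the 10 regions, which were picked by their p, so this is no separate result. Of the 10, 4 have no WT line and 2 have no DKO line, and these are separate only through missing lines.

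When the fit was limited to the 97204 regions listed in all 6 libraries, 8 of 1472 lncRNA promoter regions passed as lower, or 0.543%, against 0.642% of all regions in that fit, and 3 as higher, or 0.204%, against 0.293%. The 8 were Gm14062, A830009L08Rik, 4930440C22Rik, Gm43619, 1700025O08Rik, Gm34240, Gm28189 and 1700019G24Rik, none of them CpG-rich. Their log2 changes ran from −0.91 to −0.51. Gm14062 had 14.0, 8.25 and 17.9 in WT and 6.99, 7.37 and 4.26 in DKO, and its adjusted p was 0.0181 by limma in that fit. 1700019G24Rik, in an intron of the dynein gene Dync1i1, had 20.4, 16.8 and 28.3 in WT and 14.3, 16.4 and 10.8 in DKO, with an adjusted p of 0.0345. Both pairs of groups were separate.

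The 3 that rose in the same fit were BC023719, Gm11454 and 2610035D17Rik. 2610035D17Rik (chr11:113172344-113173162), a lincRNA 390120 bp from Sox9, the nearest coding gene and a master gene of cartilage, had 8.50, 6.55 and 7.55 in WT and 11.6, 10.9 and 9.80 in DKO. The groups were separate, and the log2 change was 0.70 ± 0.17, with an adjusted p of 0.0399 by limma. Gm11454 (chr2:163122226-163122748) had 4.09, 3.98 and 6.16 in WT and 8.95, 7.94 and 5.90 in DKO. The values as deposited overlapped there, since WT replicate 3 was above DKO replicate 3, and the adjusted p was also 0.0399.

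Regions listed in every library of 1 genotype and none of the other numbered 23 for WT, or 0.961% against 1.28% of all regions kept, and 37 for DKO, or 1.55% against 1.19%. The counts rest on the end of each list: among the 50000 smallest p of each library they were 9 and 8. They were 46 and 38 where intervals had to cover 0.5 of a region and 53 and 50 without WT replicate 1, so their order turned in all 3. With 1 library left out they ran from 40 to 53 and from 50 to 60. The WT-only regions with the highest mean fold enrichment were A630023P12Rik, Gm37892, Gm34973, 4833415N18Rik and 1700016P04Rik. 4833415N18Rik had its summit 20 bp from the TSS and 5.26, 3.13 and 4.11 in WT. The DKO-only ones were 2410017I17Rik, Gm49654, Gm47471, Gm13174 and Gm11534. Gm11534, in an intron of B4galnt2, had 5.87, 4.54 and 5.57 in DKO. AP-1 letters were in 4 of the 23 WT-only and 8 of the 37 DKO-only regions. They were in 28 of the 117 regions lower at an unadjusted p under 0.05, or 23.9% (17.1 to 32.4), and in 43 of the 159 higher, or 27.0% (20.7 to 34.4), where 26.1% of all lncRNA promoter regions held them.

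By rank within each library, the lncRNA promoters as a whole held about the same place in WT and DKO. The median percentile was 54.4, 52.0 and 52.2 in WT and 52.5, 52.2 and 51.9 in DKO, which overlap, with a difference of −0.68. That difference was −0.0024 without WT replicate 1, −1.06 without DKO replicate 2, −1.42 within 2 kb of a TSS and 1.04 with no filter on q. Coding promoters had 61.1, 61.7 and 60.7 in WT and 62.9, 63.6 and 64.1 in DKO, and distal regions 41.9, 40.4 and 41.9 against 37.4, 38.9 and 39.1. LncRNA promoters were thus lower than coding promoters in 6 of 6 libraries, with a mean difference of −9.85 percentiles, and the difference moved by −3.04 from WT to DKO. Ranked by fold enrichment in place of p the first was −3.99, and from the start of each gene only it was −17.7. The second was −1.97 without WT replicate 1, −1.54 with −log10 q over 5 and −1.46 over regions listed in all 6 libraries. With 3 libraries against 3, no exact permutation p can go below 0.10.

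By gene type, lincRNA regions had median percentiles of 56.2, 54.2 and 54.6 in WT and 54.0, 54.5 and 53.1 in DKO, which overlap. Antisense regions had 44.5, 42.9 and 42.6 in WT and 49.3, 47.5 and 47.7 in DKO, so that every DKO library was above every WT library, by 4.83 percentiles on average. Over only the 306 antisense regions listed in all 6 libraries that difference was −0.09. It was 1.87 with −log10 q over 5, 2.05 by rank of fold enrichment and 3.08 without WT replicate 3. The share of antisense regions listed was 81.7%, 78.3% and 79.3% in WT and 81.9%, 82.8% and 80.6% in DKO.

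**Figure D5:**
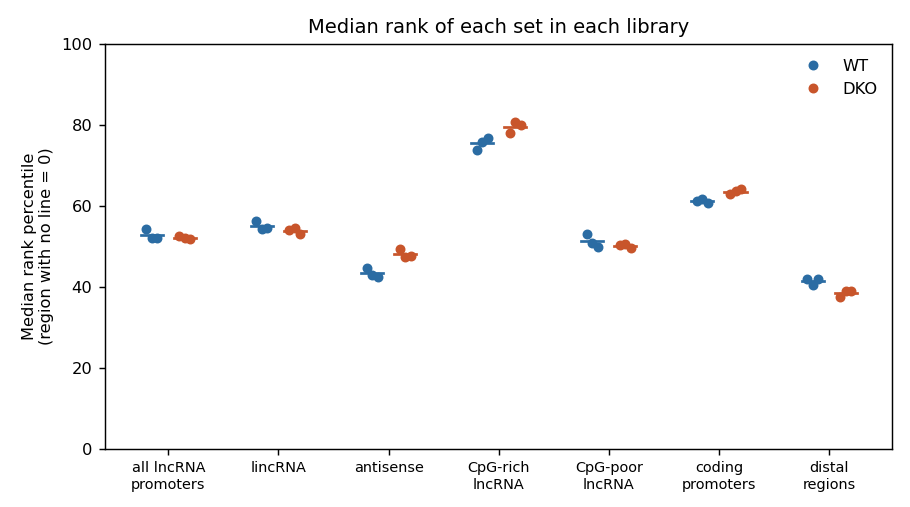
Median rank percentile (vertical axis, a region with no line counted as 0) of each set in each library, with points for WT (blue) and DKO (orange) libraries and short lines at their means. LncRNA promoters lie between coding promoters and distal regions in every library, and WT and DKO points are separate for antisense, CpG-rich, coding and distal regions.

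Set against coding promoters of the same CpG class, lncRNA promoters were lower when CpG-rich and higher when CpG-poor. CpG-rich lncRNA promoters had median percentiles of 73.8, 75.7 and 76.9 in WT and 78.1, 80.6 and 79.9 in DKO, where CpG-rich coding promoters had 80.9, 82.9 and 82.1 and 83.3, 84.1 and 84.9. They were lower than their coding class in 6 of 6 libraries, with a mean difference of −5.54 percentiles. CpG-poor lncRNA promoters had 52.98, 50.9 and 49.9 in WT and 50.4, 50.6 and 49.5 in DKO, where CpG-poor coding promoters had 47.0, 46.3 and 45.4 and 47.6, 47.1 and 48.3. They were higher than their coding class in 6 of 6 libraries, by a mean of 3.78 percentiles. The comparison by CpG class was chosen after the values over all regions were seen.

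LncRNA promoters with AP-1 letters ranked higher than those without in each library, as did all open regions with the letters, at a median mean rank of 46.6 against 35.8, and coding promoters, at 62.1 against 59.5. Medians were 62.1, 59.8 and 61.4 in WT and 61.0, 62.0 and 63.5 in DKO for the 625 regions with the letters, and 50.1, 49.9 and 48.5 and 49.0, 49.0 and 47.2 for the 1768 without. WT and DKO overlapped in both. The median log2 change was 0.05 with the letters and 0.02 without. These are descriptions over regions that share each library's depth.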

How the data were processed

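ATAC-seq of WT and DKO preadipocytes (3 libraries each) was used. Per the labels and the study's methods, the authors demultiplexed reads with bcl2fastq 2.17, trimmed with cutadapt 1.18, mapped to mm10 with Bowtie2 2.3.4.3, removed duplicate and mitochondrial reads and called peaks per library with MACS2, whose version is not given in the sources used here. The deposited lists give a fold enrichment ratio over local background, −log10 p and −log10 q per summit, and no counts. Read totals were not analysed here, so precision is judged from summit pileups, recovered from fold enrichment and −log10 p through the Poisson model. Position rules used every transcript of GENCODE M21. Values were the highest line of each library in a merged region. Tests used limma 3.58.1 (R 4.3.3) on log2 fold enrichment after quantile scaling, with no pseudocount. The fit was tried on simulated data with normal noise and no tied stand-in values, so that trial does not cover missing lines. Median ranks are given by library with no test. Lists, motifs and the region rule were chosen with earlier results of these data known. Named regions were list genes, called regions, the 10 highest ranks, the 5 smallest p in each direction and up to 5 regions listed in 1 genotype only. Alternatives covered scaling, filters, distances, unit, moderation, replicate block and each library left out.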

Additional observations from a re-analysis of the deposited data

How the results depend on the processing

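Counts of called regions depended on the processing, and the cause was not tested. Over all regions, 79 were lower and 50 higher by limma. These counts became 156 and 83 with median centring, 15 and 10 with no scaling, 624 and 285 over only regions listed in all 6 libraries, 327 and 153 with no filter on q, 186 and 127 with −log10 q over 5, 2068 and 2054 without a trend in eBayes, 38 (lower) on summit pileups (chosen after seeing the data), and 0 to 1 and 0 to 0 with 1 library left out. For lncRNA promoters, 0 lower and 2 higher became 2 and 4 with median centring, 1 higher with no scaling, 1 lower on −log10 p, 8 lower over regions listed in all 6, 3 and 5 with no filter, 2 and 5 with −log10 q over 5, 17 and 38 without a trend (17 and 36 of them with lines in 1 genotype only, the WT-only Pvt1 region among them), 1 lower within 2 kb of a TSS, 0 higher on pileups, and 0 to 0 with 1 library left out. At an unadjusted p under 0.05 the 0 lower calls stood beside 117 regions. With the replicate number as a block, 0 regions passed over all regions and 0 among lncRNA promoters. Same-numbered libraries deviated together with correlations of only 0.0058, −0.0074 and −0.0031, so the numbers were not taken as pairs.

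The difference in median rank of lncRNA promoters was −0.68, ran from −1.06 to −0.0024 with 1 library left out, and turned to 1.04 with no filter on q. The antisense difference of 4.83 was 1.87 with −log10 q over 5, 2.05 by rank of fold enrichment, 3.08 to 4.42 with 1 library left out, and turned to −0.0924 over regions listed in all 6. The gap to coding promoters (−9.85) kept its sign in each alternative run, from −3.99 by rank of fold enrichment to −17.7 from gene starts only, with −15.6 with no filter, −14.7 within 500 bp of a TSS, −14.6 with the basic set of start sites (chosen after seeing the data) and −9.77 to −8.97 with 1 library left out. WT-only regions, 23, became 10 with −log10 q over 5, 14 and 38 within 500 bp and 2 kb of a TSS, 9 among the 50000 smallest p, 46 where intervals had to cover 0.5 of a region, and 40 to 53 with 1 library left out. DKO-only regions, 37, became 10, 24 within 500 bp, 8 among the smallest p, 38 with the cover of 0.5, and 50 to 60 with 1 library left out. Among named regions, log2 changes turned in sign for Malat1 at the TSS (0.13), to −0.0465 with no scaling, −0.13 on −log10 p and −0.23 on pileups, for the weak Malat1 region (−0.06), to 0.0099 with median centring, and for Neat1 (0.43), to −0.0464 with no filter. Depth limits regions near the end of the lists, where the lowest line rests on 8 to 12 reads.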

Other observations

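Chromosome X lay outside the rule, and the lncRNAs of its inactivation centre are given here as values. Xist and Tsix had no summit within 1 kb of a TSS in any of the 6 libraries. Ftx had 8 to 12 summits in each library, the highest at fold enrichments of 18.3, 14.7 and 15.5 in WT and 13.1, 11.9 and 13.1 in DKO. Jpx had 3 to 6, the highest at 7.88, 5.98 and 11.2 in WT and 7.83, 5.67 and 7.54 in DKO. Firre, a lncRNA of nuclear architecture, had 2 to 4, the highest at 17.6, 14.2 and 22.1 in WT and 14.5, 18.99 and 16.4 in DKO. Genes differ in their number of start sites, so the numbers of summits are not compared between genes. The unscaled fold enrichments of Ftx did not overlap, but its highest rank percentiles did, at 91.9, 91.35 and 86.6 in WT and 86.2, 82.5 and 88.8 in DKO. In Jpx and Firre both overlapped.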
